A study of Mus musculus with 48 samples.

Results

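The enzymes described here break down amino acids in hepatocytes. They are 9 of the 20622 genes with cytoplasmic RNA in these livers, and all 9 were also among the 16269 genes with a ribosome-profiling transcript. They were taken by gene symbol, from a list drawn up with earlier results of these data known. *Hal* (histidine ammonia-lyase) and *Uroc1* (urocanate hydratase) carry out the opening steps of histidine breakdown. *Sds* (serine dehydratase) and its relative *Sdsl* turn serine and threonine into keto acids that can feed glucose synthesis. *Prodh* (proline dehydrogenase) opens proline breakdown, *Tat* (tyrosine aminotransferase) and *Hpd* (hydroxyphenylpyruvate dioxygenase) act in succession on tyrosine, *Tdo2* (tryptophan dioxygenase) opens the kynurenine route of tryptophan, and *Agxt* (alanine-glyoxylate aminotransferase) detoxifies glyoxylate in peroxisomes. Hepatocytes near the portal vein, called zone 1, are known for breaking down amino acids and making glucose and urea, whereas hepatocytes around the central vein, called zone 3, receive WNT signals, capture ammonia as glutamine and take up other tasks. *Tat*, *Sds* and *Tdo2* are textbook examples of genes induced by fasting hormones and glucocorticoids.

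From each liver, ribosome-protected fragments (RPFs), which are the stretches of mRNA that lie inside a ribosome, and cytoplasmic RNA were sequenced. Male mice of 2 to 4 months received AAV8.TBG.Cre, a virus that expresses Cre recombinase from a hepatocyte promoter, and livers were taken 4 or 10 days later. The groups were WT, *Ctnnb1* ex3/WT (B, in which Cre removes an exon of *Ctnnb1* and leaves a stabilised β-catenin from 1 of the alleles), *R26* LSL-MYC (M, in which Cre releases a MYC transgene) and mice with both alleles (BM). WT mice received the same virus. There were 3 mice per genotype and day, which gave 24 mice and 48 libraries, and each library pair came from its own mouse. Mice of both days were induced at different times and harvested together. Levels are given as CPM, counts scaled to a common library size (TMM), changes as log2 differences from edgeR's quasi-likelihood test ± SE, and a change was called at a Benjamini-Hochberg adjusted p under 0.1 over all genes tested. Because whole liver was used, fewer cells of a type and less RNA per cell cannot be told apart.

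RPF libraries held 9742197 to 14380713 counts and RNA libraries 3254141 to 6540116. *Glul* and *Axin2*, textbook β-catenin targets, separated WT and M from B and BM as labelled: *Axin2* stood at 1.54 to 3.51 RPF CPM in the WT and M mice and at 6.18 to 28.5 in the B and BM mice. Reads counted as mouse *Myc* separated WT and B (2.42 to 35.4 RPF CPM) from M and BM (43.7 to 164), whereas its RNA overlapped. The BM mice of day 10 did not form a uniform group. *Axin2* was 26.8 RPF CPM in mouse 1, 10.5 in mouse 2 and 6.18 in mouse 3. The RPF changes of the day 10 BM mice against WT, B and M are therefore also given without mouse 1 and without mice 2 and 3. The latter leaves 1 BM mouse, so that the spread was taken from the other groups. It was chosen after the values had been seen. Both settings describe these mice and are no test of the genotype. Hepatocyte markers (*Alb*, *Apoa1*, *Ttr*, *Serpina1c* and *Hnf4a*) were abundant in all libraries, with a summed level of 20588 to 81991 RPF CPM. Their sum was 63690 to 73264 in WT and 30732 to 37125 in BM at day 4, and 63346 to 81991 in WT, 31725 to 34869 in B, 35030 to 39224 in M and 20588 to 24356 in BM at day 10. Kupffer, endothelial and stellate cell lists of 6 genes each were also lower in BM at day 4 than in WT (summed RPF CPM 315 to 332 against 532 to 619, 623 to 690 against 813 to 909, and 628 to 753 against 1005 to 1056). At day 10 the stellate list was lower than in WT (1062 to 1222) in B (593 to 811), M (762 to 862) and BM (654 to 862), the endothelial list was lower than in WT (794 to 935) in B (633 to 748) and M (583 to 656), and the Kupffer list was higher in BM (655 to 723 against 411 to 589). In M at day 4 the endothelial list (622 to 742), the stellate list (765 to 922) and the hepatocyte markers (41076 to 53728) were lower than in WT. In B at day 4 the Kupffer list was lower (413 to 499). The cholangiocyte list of 5 genes was lower than in WT (85.2 to 133) in B (59.8 to 63.6), M (43.8 to 62.7) and BM (36.2 to 54.1) at day 4. The blood list of 6 genes was lower in M (290 to 384) and BM (227 to 311) at day 4 than in WT (571 to 618), and in M at day 10 (259 to 366 against 466 to 603). The part of these differences in the results below was not tested.

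In WT livers the enzymes covered a wide range of RNA levels. Per length, in TPM over the 6 WT mice of both days, *Hpd* (940 ± 262, SD), *Tdo2* (626 ± 195) and *Tat* (533 ± 159) formed an upper set whose ranges overlapped. *Uroc1* (118 ± 35.2), *Agxt* (115 ± 41.1), *Hal* (88.9 ± 36.0), *Prodh* (56.7 ± 21.2) and *Sds* (44.4 ± 28.5) formed a middle set in which each neighbour overlapped the next, and *Sdsl* (3.31 ± 2.48) lay below all others. No enzyme was absent from any RPF library. The lowest RPF count of an enzyme in any mouse was 9 for *Sdsl* and 60 for *Sds*, and at least 153 for the other enzymes. RNA counts of *Sdsl* ran from 0 to 29, so that it did not pass the RNA filter in 6 of the comparisons below and its RNA values are imprecise.

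On GRCm39, *Sds* (chr5:120614585-120621997, plus strand) and *Sdsl* (chr5:120596251-120611060, minus strand) were neighbours with 3524 bases between them. Whether reads of these related coding sequences crossed from *Sds* to *Sdsl* was not tested. *Hal* lay at chr10:93324629-93355166, *Uroc1* at chr6:90310266-90341740, *Prodh* at chr16:17877575-17908067, *Tat* at chr8:110717063-110726435, *Hpd* at chr5:123309870-123320817, *Tdo2* at chr3:81864248-81883509 and *Agxt* at chr1:93062962-93073143. RPFs were counted on 1 transcript per gene. That transcript carried all RNA counts of *Hal*, *Tat*, *Tdo2*, *Hpd* and *Agxt*, but 50.1% for *Sds*, 52.1% for *Sdsl*, 50.6% for *Uroc1* and 44.9% for *Prodh*, for which RNA is the sum over isoforms.

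The 250 bases upstream of the RefSeq start were taken for 7 of the enzymes on GRCm38.p6 (*Sds* and *Sdsl* were not analysed here) and searched on both strands for 3 motifs that do not overlap one another: CTTTGAT, the core bound by the TCF/LEF partners of β-catenin, CACGTG, the E-box bound by MYC, and AGAACA, the hexamer bound by a glucocorticoid receptor subunit. CTTTGAT was found in 1 of the 7 windows (*Hal*), CACGTG in 0 and AGAACA in 1 (*Agxt*), against 3.21%, 6.02% and 16.1% of 32851 windows in the table. The windows of *Hal*, which had the largest fall described below, of *Prodh*, which was called higher in 5 of the 6 comparisons with WT, and of *Agxt* are shown 5′ to 3′ with matches in capitals. They lie at chr10:93488518-93488767 (plus strand), chr16:18089191-18089440 (minus strand) and chr1:93134990-93135239 (plus strand). The *Hal* match starts 199 bases before the RefSeq start and the *Agxt* match 129 bases before it. A match is a description of the sequence and not a bound site.
Hal: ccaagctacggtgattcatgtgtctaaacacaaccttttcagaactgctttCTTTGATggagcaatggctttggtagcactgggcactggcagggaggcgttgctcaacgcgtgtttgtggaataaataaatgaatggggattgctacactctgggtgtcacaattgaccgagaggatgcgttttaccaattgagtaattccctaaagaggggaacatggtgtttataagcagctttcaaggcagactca
Prodh: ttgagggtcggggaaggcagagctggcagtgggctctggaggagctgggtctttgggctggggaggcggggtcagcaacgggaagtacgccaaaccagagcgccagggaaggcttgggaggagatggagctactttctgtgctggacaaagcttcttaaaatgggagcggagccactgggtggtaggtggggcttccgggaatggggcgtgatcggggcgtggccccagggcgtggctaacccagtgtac
Agxt: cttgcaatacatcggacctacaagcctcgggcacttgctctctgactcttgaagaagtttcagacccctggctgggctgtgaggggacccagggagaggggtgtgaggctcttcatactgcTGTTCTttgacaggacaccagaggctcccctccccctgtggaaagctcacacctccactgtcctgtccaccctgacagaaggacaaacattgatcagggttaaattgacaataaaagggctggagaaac

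**Figure D1:**
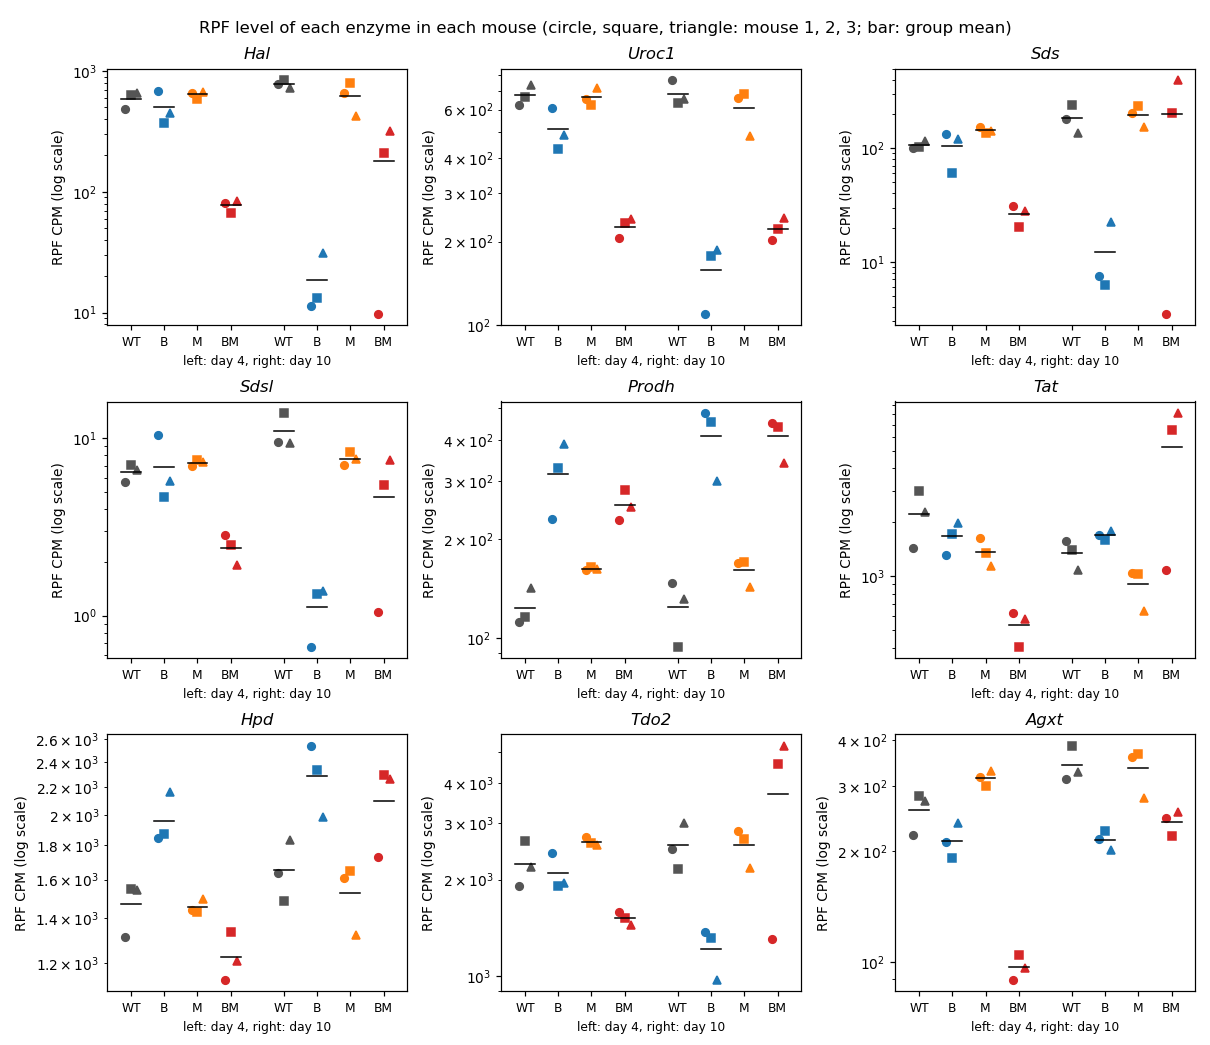
RPF level (CPM, log axis, a different range in each panel) of the 9 enzymes in each of the 24 mice, by genotype (WT grey, B blue, M orange, BM red), with day 4 on the left of a panel and day 10 on the right. Points are mice 1 to 3 of a group and bars are group means. *Hal* fell from 724 to 839 CPM in WT to 11.4 to 30.9 CPM in B at day 10, and BM mouse 1 of day 10 lay far below mice 2 and 3 for *Hal*, *Sds*, *Sdsl*, *Tat* and *Tdo2*.

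Mutant β-catenin alone moved few of the enzymes at day 4. *Prodh* was at 112, 116 and 142 RPF CPM in the 3 WT mice and at 230, 328 and 389 in the B mice, so that the groups did not overlap, and it rose 2.53-fold (log2 change 1.34 ± 0.17, adjusted p = 7.99e-04). *Hpd* rose (log2 change 0.40 ± 0.10, adjusted p = 0.0338) and *Uroc1* fell (log2 change -0.43 ± 0.13, adjusted p = 0.0648). These 3 of 9 enzymes were called, beside 12.5% of all 11058 genes tested (6.21% higher and 6.26% lower). The median change was -0.11 over the enzymes and -0.01 over all genes. *Hal* gave 483, 631 and 662 CPM in WT and 684, 372 and 445 in B, with overlapping groups and a log2 change of -0.26 (95% interval -0.70 to 0.18). In RNA, the same 3 enzymes were called in the same directions out of 8 tested, beside 8.14% of all genes. The call count in RPFs was 1 without B mouse 3, and in RNA 5 without WT mouse 1 and 1 without WT mouse 3.

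MYC alone at day 4 gave small shifts. *Sds* was at 101, 103 and 116 RPF CPM in WT and at 154, 137 and 143 in M, and rose 1.38-fold (log2 change 0.46 ± 0.08, adjusted p = 0.00266). *Prodh* (0.43 ± 0.10) and *Agxt* (0.32 ± 0.10) rose as well, and *Tat* fell from 1444, 2967 and 2276 CPM to 1634, 1344 and 1139 (-0.67 ± 0.22, adjusted p = 0.0482), with overlap between the groups. Thus 4 of 9 enzymes were called, beside 33.3% of all genes (18.5% higher and 14.7% lower), and the median was 0.21 against 0.01 over all genes. In RNA, 5 of 9 enzymes were called, *Tdo2* in addition and higher, beside 23.7% of all genes. With 1 fit over all 24 mice none of the 4 RPF changes was called. Without M mouse 3, the RPF count was 2, and *Tat* was not called without M mouse 3 or without WT mouse 2 or 3. The RNA count was 3 without WT mouse 1 or 3 or M mouse 1 or 3.

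Both alleles together lowered all of these enzymes but *Prodh* at day 4. *Hal* was at 80.1, 67.3 and 84.3 RPF CPM in the BM mice against 483 to 662 in WT, a fall to 0.131 of the WT level (log2 change -2.93 ± 0.13, adjusted p = 1.01e-07). *Uroc1*, which acts on the product of Hal, fell from 626, 667 and 736 to 207, 233 and 241 CPM (-1.56 ± 0.10). The histidine enzymes of every BM mouse were thus below those of every WT mouse. *Sds* fell from 101 to 116 CPM in WT to 30.7, 20.4 and 28.1 (-2.01 ± 0.13), and *Sdsl* from 5.67, 7.03 and 6.65 to 2.84, 2.50 and 1.92 (-1.39 ± 0.20). *Tat* fell to 623, 405 and 577 CPM (-2.05 ± 0.23) and *Agxt* from 221, 283 and 273 to 89.8, 105 and 96.6 (-1.40 ± 0.11). Smaller falls were found for *Tdo2* (-0.55 ± 0.11), with 1589, 1519 and 1438 CPM in BM against 1914, 2631 and 2183 in WT, and for *Hpd* (-0.25 ± 0.10, adjusted p = 0.0661), whose groups overlapped. *Prodh* rose 2.08-fold to 229, 282 and 251 CPM (1.06 ± 0.11, adjusted p = 2.81e-05).

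All 9 enzymes were therefore called in this comparison, 8 lower and 1 higher, beside 50.9% of all genes (26.2% higher and 24.7% lower). Their median was -1.40 against 0.00 over all genes. In RNA, 7 of the 8 enzymes tested were called, 6 lower and *Prodh* higher, beside 41.9% of all genes. *Hpd* RNA changed by -0.24 (adjusted p = 0.102). RPF counts of called enzymes were 8 or 9 when any of the 6 mice was left out. The hepatocyte marker list fell in the same livers (5 of 5 lower, median -1.11), with summed levels as given above.

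The BM livers also differed from both single genotypes at day 4. Against M, all 9 enzymes were called in RPFs, 8 lower and *Prodh* higher, beside 38.2% of all genes, with *Hal* at -3.08 ± 0.10, *Sds* at -2.48 ± 0.13 and *Agxt* at -1.73 ± 0.09. Against B, 8 were lower and 0 higher, beside 44.7% of all genes, with *Hal* at -2.67 ± 0.21 and *Tat* at -1.61 ± 0.18. *Prodh* did not differ detectably between BM and B (-0.28, 95% interval -0.65 to 0.08). In RNA the counts were 9 of 9 against M, beside 30.5% of all genes, and 7 of 8 against B, beside 34.8%. These comparisons share the BM mice with each other and with the comparison against WT.

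The effect of both alleles was lower than the sum of the single effects for all 9 enzymes at day 4, beside 19.7% of all genes called in either direction. The RPF difference was largest for *Hal* (-2.83 ± 0.26, adjusted p = 5.13e-05), for which B and M gave -0.26 and 0.14, and for *Sds* (-2.44 ± 0.30), for which B and M gave -0.04 and 0.46. It was -1.70 ± 0.35 for *Sdsl*, -1.44 ± 0.15 for *Agxt*, -1.16 ± 0.17 for *Uroc1* and -0.96 ± 0.32 for *Tat*. *Prodh*, which rose in each genotype, rose by less in BM than the sum of its rises in B and M (-0.73 ± 0.21, adjusted p = 0.036). With a single fit over all 24 mice, whose shared spread includes the day 10 BM mice, 4 of the 9 remained called (*Hal*, *Hpd*, *Uroc1* and *Agxt*).

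**Figure D2:**
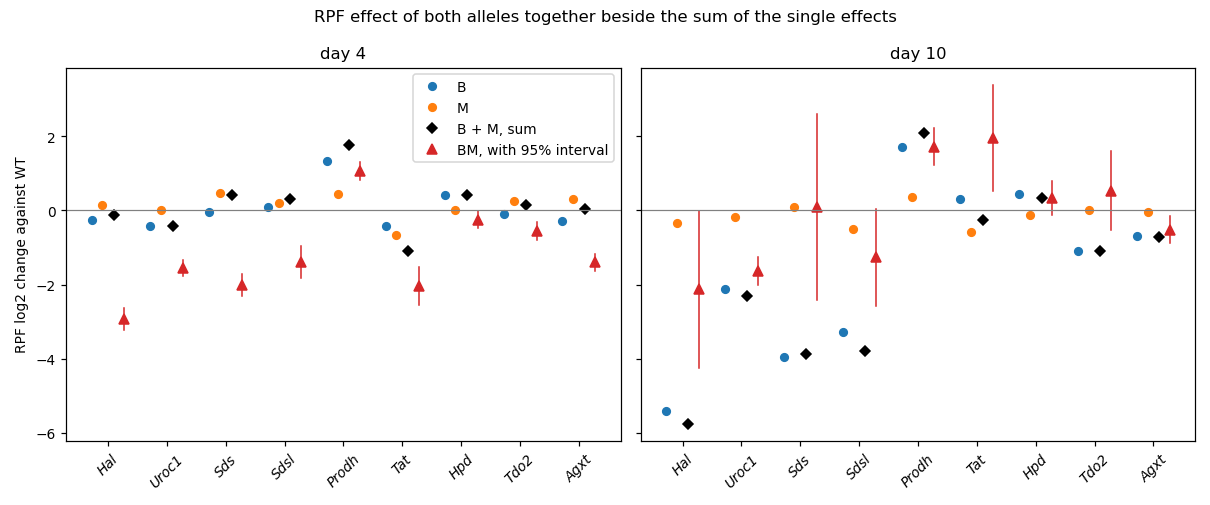
RPF log2 change against WT of each enzyme (y axis) at day 4 (left) and day 10 (right), in B (blue), M (orange) and BM (red triangles, with 95% intervals), with the B and M changes added together as black diamonds. At day 4 every BM triangle lies below its diamond, and at day 10 the BM intervals of *Hal*, *Sds*, *Sdsl*, *Tat* and *Tdo2* are wide.

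By day 10, mutant β-catenin alone had lowered 6 of the enzymes. *Hal* was at 788, 839 and 724 RPF CPM in WT and at 11.4, 13.1 and 30.9 in B, a fall to 0.0234 of the WT level (log2 change -5.42 ± 0.38, adjusted p = 8.68e-05). *Sds* fell from 182, 241 and 137 CPM to 7.57, 6.25 and 22.5 (-3.95 ± 0.46), and *Sdsl* from 9.56, 13.8 and 9.34 to 0.668, 1.32 and 1.38 (-3.28 ± 0.29). *Uroc1* fell from 767, 636 and 655 CPM to 110, 178 and 186 (-2.13 ± 0.21). The lowest WT mouse was above the highest B mouse for each of these, and B mouse 3 was the highest of the B mice in all 4. *Tdo2* was lowered to 0.469 of the WT level, from 2497, 2165 and 3004 to 1369, 1310 and 974 CPM (-1.09 ± 0.17), and *Agxt* fell from 313, 385 and 327 to 216, 227 and 201 CPM (-0.69 ± 0.12).

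The proline and tyrosine enzymes did not follow that direction. *Prodh* rose 3.26-fold, from 147, 94.2 and 131 RPF CPM to 482, 454 and 300 (1.70 ± 0.21, adjusted p = 0.00123), and *Hpd* rose 1.36-fold (0.44 ± 0.14, adjusted p = 0.0564). *Tat* gave 1565, 1393 and 1083 CPM in WT and 1693, 1598 and 1788 in B, and was not called (0.31, 95% interval -0.03 to 0.65). In all, 8 of 9 enzymes were called, beside 25.2% of all genes (13.1% higher and 12.1% lower), and the median was -1.09 against 0.01 over all genes. In RNA the same 8 were called in the same directions, beside 15.6% of all genes. *Hal* RNA stood at 477, 422 and 373 CPM in WT and at 5.42, 9.23 and 11.9 in B (-5.55 ± 0.25). *Sdsl* RNA in B rested on 0 to 2 counts per library.

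The B effect differed between the days for 5 enzymes. The day 10 minus day 4 difference of the B effect in RPFs was -5.16 ± 0.45 for *Hal*, -3.90 ± 0.55 for *Sds*, -3.36 ± 0.44 for *Sdsl*, -1.70 ± 0.26 for *Uroc1* and -0.98 ± 0.23 for *Tdo2*, beside 17.2% of all genes called. RNA gave the same 5, beside 9.31%. For *Prodh* the B effects of 1.34 and 1.70 did not differ detectably (0.37, 95% interval -0.27 to 1.01), nor did those of *Hpd* (0.05, -0.31 to 0.41). WT mice of day 4 and day 10 themselves differed for *Sds* (log2 change 0.80 ± 0.17, higher at day 10) and *Sdsl* (0.77 ± 0.19) in RPFs, beside 4.44% of all genes, and for *Hal* (0.58 ± 0.13) and *Sds* (1.01 ± 0.19) in RNA, beside 2.32%. Without WT mouse 1 of day 4 neither RPF rise was called, and *Tat* was called lower at day 10 (-0.96). The RPF count was 1, higher, without WT mouse 3 of day 4 or WT mouse 2 of day 10. Its RNA count was 1 without WT mouse 1 of either day and 5 without WT mouse 2 of day 10.

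MYC alone had no called effect on RPFs of the enzymes at day 10: 0 of 9, beside 19.4% of all genes (10.6% higher and 8.8% lower), with 2 of 9 at an unadjusted p under 0.05 (*Sdsl* and *Tat*). DESeq2 and edgeR's test with a replicate block each called 1, *Tat*, lower (-0.58 and -0.60). Without M mouse 3 the count was 1, *Prodh*, higher (0.45). *Hal* was at 657, 790 and 425 CPM in M against 724 to 839 in WT (-0.33, 95% interval -0.81 to 0.14), and *Sds* at 204, 237 and 153 against 137 to 241. In RNA, *Tat* alone was called and lower (-0.68 ± 0.23, adjusted p = 0.0885), beside 15.7% of all genes, and it was not called when WT mouse 1 or 2 or any M mouse was left out. The hepatocyte marker list had fallen in these livers too (4 of 5 lower, median -0.93). The M effect did not differ between the days for any enzyme by edgeR's test, in RPFs (1.18% of all genes called) or in RNA (1.2%), with 1 (*Sdsl*) and 0 enzymes at an unadjusted p under 0.05, and DESeq2 also called 0.

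**Figure D3:**
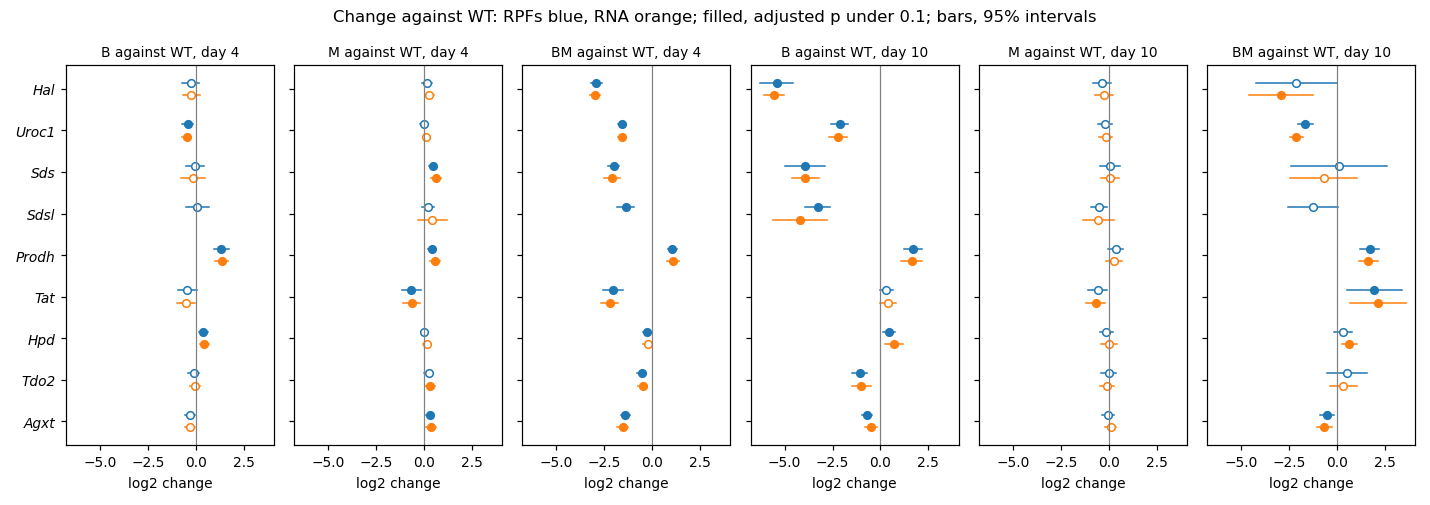
Log2 change against WT (x axis) of each enzyme (rows) in the 6 comparisons, in RPFs (blue) and RNA (orange), with 95% intervals. Filled points have an adjusted p under 0.1, and *Sdsl* RNA was not tested in 3 of the panels. *Prodh* is to the right of 0 wherever it was called, and the widest intervals are those of BM at day 10.

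The BM livers of day 10 divided the enzymes into a set that was alike in the 3 mice and a set that was not. *Prodh* was high in each (451, 439 and 340 RPF CPM against 94.2 to 147 in WT, log2 change 1.71 ± 0.22, adjusted p = 0.00138). *Uroc1* was low in each (202, 222 and 243 against 636 to 767, -1.64 ± 0.17, adjusted p = 6.29e-04), and so was *Agxt* (246, 220 and 255 against 313 to 385, -0.52 ± 0.16). These calls held without mouse 1 (1.64, -1.57 and -0.53), and the changes were 1.83, -1.79 and -0.50 without mice 2 and 3 together. When WT mouse 2 or BM mouse 2 alone was left out, 1 enzyme was called higher and 1 lower, so that *Uroc1* and *Agxt* were not both called.

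The other set split by mouse. *Hal* was at 9.77 RPF CPM in BM mouse 1, just below the B mice (11.4 to 30.9), and at 210 and 320 in mice 2 and 3, below WT. *Sds* was at 3.49 CPM in mouse 1 and at 204 and 397 in mice 2 and 3, against 137 to 241 in WT. *Sdsl* was at 1.05, 5.42 and 7.50 CPM. In these 3 genes mouse 1 lay with or below the B mice, and mice 2 and 3 lay above all B mice. *Tat* was at 1090 CPM in mouse 1, within the WT range of 1083 to 1565, and at 6549 and 8101 in mice 2 and 3, the highest *Tat* levels of the 24 mice. *Tdo2* was at 1302 in mouse 1 and at 4600 and 5217 in mice 2 and 3, against 2165 to 3004 in WT. *Hpd* showed a smaller gap between the mice, at 1729, 2293 and 2264 against 1486 to 1834. RNA followed the same split, with *Tat* at 597, 4093 and 5585 CPM and *Sds* at 0.990, 34.7 and 56.4.

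Over the 3 mice, 4 of 9 enzymes were called in RPFs, *Prodh* and *Tat* higher and *Uroc1* and *Agxt* lower, beside 46.8% of all genes (24.5% higher and 22.3% lower). The median was 0.10 against 0.03 over all genes. *Tat* gave 1.95 ± 0.62 (adjusted p = 0.0419), *Hal* -2.13 ± 0.92 (adjusted p = 0.102) and *Sds* 0.10 (95% interval -2.41 to 2.61). In RNA, 6 of 8 were called, *Hpd* and *Hal* in addition, beside 45.7% of all genes. Without mouse 1, where 33.4% of all genes were called higher and 32.9% lower, all 9 were called in RPFs, 5 higher (*Prodh*, *Tat* at 2.43, *Tdo2* at 0.93, *Sds* at 0.68 and *Hpd* at 0.45) and 4 lower (*Hal* at -1.57 among them). Mouse 1 stood apart in levels of these same enzymes, so that these calls describe mice 2 and 3 and do not test the genotype. Without mice 2 and 3, mouse 1 alone gave *Hal* at -6.35, *Sds* at -5.76, *Sdsl* at -3.39, *Tdo2* at -1.0 and *Tat* at -0.33. The count of called enzymes was 2 when WT mouse 2 or BM mouse 2 alone was left out.

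Several genes of fasting split by the same mice, and genes of the glucocorticoid response were high in all 3 BM mice. *Pck1*, the entry enzyme of glucose synthesis, was at 651 RPF CPM in BM mouse 1 and at 3539 and 3912 in mice 2 and 3, against 1126 to 1237 in WT. *Ppargc1a*, a coactivator of the fasting response, was at 27.5, 172 and 231 CPM against 9.29 to 12.4, and *Fkbp5*, a glucocorticoid-induced gene, was at 58.6, 165 and 126 against 16.9 to 20.2. The whole list of 8 fasting genes summed to 2252 CPM in mouse 1 and to 5580 and 6593 in mice 2 and 3, against 3141 to 3955 in WT. Differences in this list were not confined to day 10. At day 4 it summed to 5788 to 8102 in WT and was lower in B (3917 to 4798), M (4702 to 5116) and BM (2284 to 3027). A list of 6 glucocorticoid response genes, *Mt1* and *Mt2* among them, summed to 746, 1493 and 1662 against 41.1 to 54.2 in WT. That sum was also above WT in B (62.2 to 208) and M (74.2 to 96.3) at day 10. *Tsc22d3* of that list was at 34.5, 42.7 and 50.7 against 13.7 to 17.1 in WT, 23.8 to 48.8 in B and 10.2 to 22.1 in M. Other genes also differed between these mice. In BM mice 1, 2 and 3 of day 10, *Myc* was at 58.1, 121 and 164 RPF CPM, *Glul* at 3488, 2481 and 1625, and *Axin2* at 26.8, 10.5 and 6.18. A list of 10 zone 1 genes, *Pck1* among them, summed to 14464.5, 36211 and 38317 against 17440 to 18387 in WT. Feeding state and hour of death are not given per mouse, and the part of any of these differences in the enzyme levels was not tested.

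**Figure D4:**
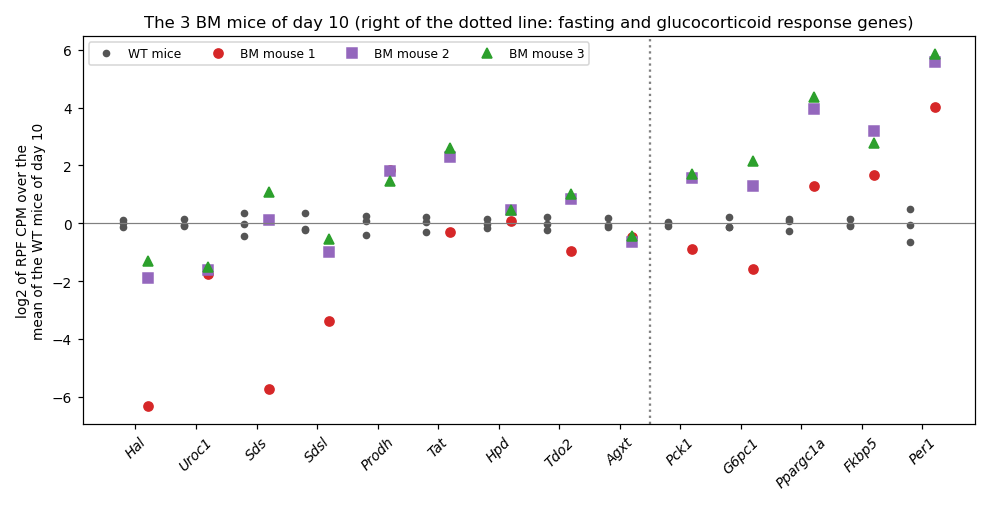
RPF CPM of each day 10 BM mouse over the mean of the 3 WT mice of day 10 (log2, y axis) for the 9 enzymes and, right of the dotted line, 5 fasting and glucocorticoid response genes. Grey points are the WT mice. Mouse 1 (red) and mice 2 and 3 (purple, green) lie together for *Uroc1*, *Prodh* and *Agxt*, with a small gap for *Hpd*, and apart for *Hal*, *Sds*, *Sdsl*, *Tat* and *Tdo2*.

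Against the single genotypes at day 10, BM differed from M in 4 of 9 enzymes in RPFs (*Prodh* and *Tat* higher, *Uroc1* and *Agxt* lower), beside 32.7% of all genes, and in 6 of 8 in RNA, beside 32.9%. Against B, 5 were called higher and 0 lower, beside 36.5%: *Hal* (3.31 ± 1.05), *Sds* (4.08 ± 1.34), *Sdsl* (2.04 ± 0.69), *Tat* (1.66 ± 0.62) and *Tdo2* (1.63 ± 0.48). Groups overlapped for all 5, with BM mouse 1 below or among the B mice or close to them, and none of the 5 was called when any B mouse, BM mouse 2 or BM mouse 3 was left out. Without mouse 1 the 5 were still called, with *Hal* at 3.88 and *Sds* at 4.66. Without mice 2 and 3 *Hal* was at -0.91, *Sds* at -1.79 and *Tat* at -0.62. In RNA 4 of 8 were called higher, beside 31.8%. The count against M was 2 when either M mouse 1 or 2 or either BM mouse 2 or 3 was left out, and 7 without BM mouse 1, with *Hal* at -1.20 and *Tat* at 3.05. Without BM mice 2 and 3, the changes against M were -6.0 for *Hal*, -5.83 for *Sds*, -2.87 for *Sdsl*, -0.98 for *Tdo2* and -1.59 for *Uroc1*. They were 1.48 for *Prodh*, 0.26 for *Tat* and -0.45 for *Agxt*. In RNA the count against B was 1 without B mouse 1, B mouse 2 or BM mouse 3.

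The BM effect differed between the days in RPFs for *Tat* (4.01 ± 0.75, adjusted p = 0.00249), *Agxt* (0.89 ± 0.19), *Prodh* (0.66 ± 0.25) and *Hpd* (0.59 ± 0.21), each higher at day 10, beside 35.7% of all genes. RNA gave *Tat* (4.37 ± 0.75), *Hpd* and *Agxt* higher and *Uroc1* lower (-0.56 ± 0.18), beside 29.9%. The rise of *Tat* between days stayed called without BM mouse 1 of day 10 (4.47), and was 1.71 without mice 2 and 3. *Agxt* gave 0.85 and 0.90. *Hal* and *Sds* took opposite directions, called at 1.34 and 2.67 without mouse 1 and at -3.43 and -3.76 without mice 2 and 3. The fit without mice 2 and 3 leaves 1 BM mouse of day 10 and measures no spread between such mice. At 7, the count without mouse 1 was above the 4 over all mice, and it was 2 when WT mouse 3 or BM mouse 1 or 3 of day 4 was left out, or WT or BM mouse 2 of day 10. Relative to the B and M effects added together, the day 10 BM effect was higher for *Hal* (3.60 ± 1.12), *Sdsl* (2.50 ± 0.72), *Tat* (2.19 ± 0.71) and *Tdo2* (1.59 ± 0.53), beside 12.5% of all genes called in either direction. Without mouse 1 the 4 were called, with *Hal* at 4.16, and *Sds* (4.52) and *Uroc1* (0.72) in addition. None of these 4 was called without mice 2 and 3, or when any WT mouse, B mouse 1 or 2, M mouse 1 or 2, or BM mouse 2 or 3 was left out, and 1 was called without M mouse 3.

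Translation efficiency (TE), the RPF change not accounted for by the RNA change, was not called for any enzyme in the 6 comparisons with WT by edgeR's test without pairing, whereas with the RPF and RNA library of a liver paired it was called for *Hal* and *Sds* in BM at day 10, as given below. All genes gave 0.0488% called for B, 0.971% for M and 2.23% for BM at day 4, and 0.0564% for B, 0% for M and 0.259% for BM at day 10. At an unadjusted p under 0.05 there were 0 enzymes in each comparison (DESeq2 also called 0), and 290, 758, 1059, 558, 334 and 1043 genes in that order. At day 4 in BM, where *Hal* RPFs and RNA both fell (-2.93 and -2.99), its TE change was 0.06 (95% interval -0.35 to 0.47). At day 10 in B the TE change of *Hal* was 0.13 (-0.85 to 1.12), with RPFs and RNA at -5.42 and -5.55.

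At day 10 in BM the intervals were wide, since the spread of the 3 mice entered both library types. The log2 ratio of RPF to RNA CPM of *Hal* was 0.73, 0.99 and 0.96 in WT and 1.04, 1.63 and 1.70 in BM, and that of *Sds* was 1.90, 1.97 and 2.07 in WT and 1.82, 2.55 and 2.82 in BM. All 3 BM mice were above the WT mice for *Hal*, and mice 2 and 3 for *Sds*. The ratio of *Uroc1* was 0.98, 1.05 and 1.14 in WT and 1.23, 1.65 and 1.73 in BM, higher in all 3 BM mice, and that of *Hpd* was 0.51, 0.83 and 0.81 in WT and 0.35, 0.44 and 0.38 in BM, lower in all 3. With the mouse as a replicate block, which pairs the RPF and RNA library of a liver, the TE change was called for *Hal* (0.65, adjusted p = 0.0895) and *Sds* (0.65, adjusted p = 0.0876), and without BM mouse 1 for *Hal* (0.78, adjusted p = 0.0623) and *Uroc1* (0.62, adjusted p = 0.0418). The share of all genes called in either setting is not given here, so that these calls cannot be set against it.

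**Figure D5:**
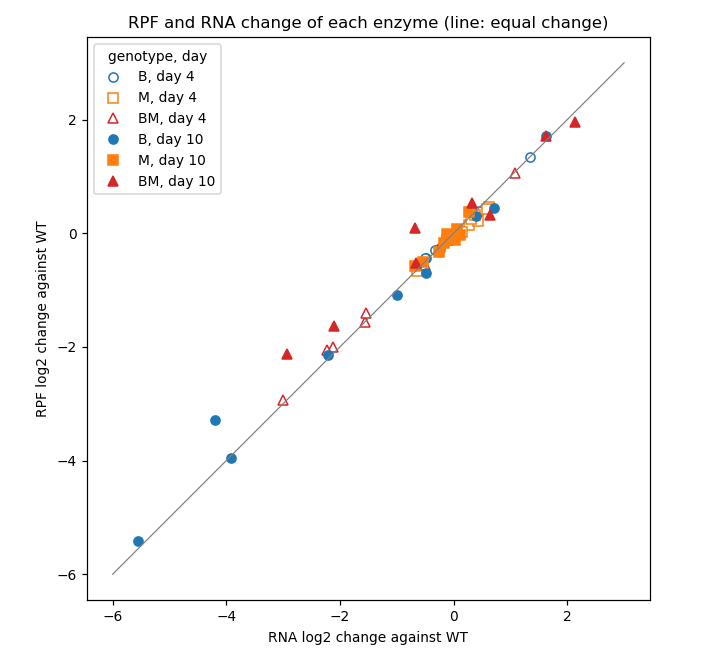
RPF log2 change (y axis) against RNA log2 change (x axis) from WT for each enzyme tested in both, in B (blue circles), M (orange squares) and BM (red triangles) at day 4 (open) and day 10 (filled). The grey line marks equal change. Points run along the line from *Hal* in B at day 10 (-5.55 in RNA, -5.42 in RPFs) to *Tat* in BM at day 10 (2.14 and 1.95), and *Sds* (-0.68 and 0.10) and *Hal* (-2.92 and -2.13) in BM at day 10 and *Sdsl* (-4.21 and -3.28) in B at day 10 lie above it. In BM at day 10, *Uroc1* (-2.11 and -1.64) also lies above the line and *Hpd* (0.65 and 0.33) below it. *Sdsl* RNA in B at day 10 rests on 0 to 2 counts per library.

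Other enzymes that act on the same amino acids were taken from a list, and not every gene of it is reported here. In histidine breakdown, *Amdhd1*, which follows Uroc1, fell with it: 227 to 265 RPF CPM in WT and 45.8 to 50.3 in BM at day 4 (log2 change -2.37), and 253 to 293 in WT, 13.8 to 35.1 in B (-3.72) and 7.62, 29.1 and 36.7 in BM at day 10 (-3.52). *Amdhd1* was thus low in all 3 BM mice of day 10, those with intermediate *Hal* included. *Ftcd*, at the end of the pathway, was called lower in the same comparisons (-1.14, -1.30 and -0.76), at 307, 244 and 272 CPM in the BM mice of day 10 against 384 to 536 in WT. In the tyrosine pathway, *Hgd*, the enzyme after Hpd, rose in B at both days (0.40 and 0.66), whereas *Fah* and *Gstz1* were called in BM at day 4 (-0.54 and -0.55). At day 10 in BM, *Gstz1* was called lower and *Hgd* higher without mouse 1 (-0.28 and 0.52). Without mice 2 and 3 *Gstz1* was at -0.60. *Aldh4a1*, which completes proline breakdown, was called higher in all comparisons but M at day 10 (0.33 to 0.53). After Tdo2, all 5 of *Afmid*, *Kmo*, *Kynu*, *Haao* and *Acmsd* fell in BM at day 4, beside 24.7% of all genes. *Acmsd*, which diverts the pathway from NAD synthesis, rose in B (1.30) and BM (2.62) at day 10. In BM it was at 33.1 CPM in mouse 1, within the WT range of 17.4 to 42.8, and at 251 and 257 in mice 2 and 3. Its change was 0.16 without mice 2 and 3. *Afmid* (-1.64), *Haao* (-1.41) and *Kmo* (-0.48) were called lower in BM at day 10, also without mouse 1, and were at -1.72, -1.58 and -0.62 without mice 2 and 3. *Kynu* was not called in BM at day 10 (-0.32), and was at 0.09 without mouse 1 and at -1.84 without mice 2 and 3. *Hao1* and *Grhpr*, which make and clear glyoxylate, were called lower in B and BM at both days, with *Hao1* at -2.51 in BM at day 10 (84.9, 71.9 and 79.9 CPM against 426 to 464 in WT).

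Among 40 other genes of amino acid breakdown, the next enzymes included, RPF calls at day 4 were 4 higher and 7 lower in B, beside 6.21% and 6.26% of all genes. They were 17 higher and 5 lower in M, beside 18.5% and 14.7%, and 3 higher and 25 lower in BM, beside 26.2% and 24.7%. At day 10 they were 8 higher and 16 lower in B, beside 13.1% and 12.1%, 8 higher and 3 lower in M, beside 10.6% and 8.8%, and 15 higher and 12 lower in BM, beside 24.5% and 22.3%. The day 10 BM mice differed in this list too, whose members summed to 13289 RPF CPM in mouse 1 and 26531 and 29935 in mice 2 and 3, against 13360 to 14830 in WT. Its calls were 19 higher and 14 lower without mouse 1, beside 33.4% and 32.9% of all genes, and its median was -0.08 without mice 2 and 3. Over all mice, the medians of the 40 genes in B, M and BM were 0.00, 0.10 and -0.41 at day 4 and -0.23, 0.01 and 0.00 at day 10. For the 9 enzymes the medians were -0.11, 0.21 and -1.40 at day 4 and -1.09, -0.12 and 0.10 at day 10.

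The enzymes also differed in which genes they resembled. As a description over the 24 mice, with genotype and day shared by the points, the genes with the highest Pearson r of log2 RPF CPM among 12000 genes were taken. *Hal* was nearest to *Gls2* (r = 0.978), *Cyp8b1* (0.973) and *Sdsl* (0.966), and *Sdsl* to *Hal*, *Gls2* and *Sds*. *Sds* was nearest to *Etnppl* (0.940), *Sdsl* and *Hal*, and *Uroc1* to *Amdhd1* (0.952), *Tymp* and *Acp3*. *Prodh* was nearest to *Ttc38* (0.949), *Rhbg* and *Oat*, and its r with *Hal* was -0.74. *Hpd* was nearest to *Hgd* (0.930), *Rab1b* and *Sin3b*. *Tat* was nearest to *BC031181* (0.921), *Vamp8* and *Lpin1*, *Tdo2* to *Cox5a* (0.946), *Uqcrh* and *Cox6b1*, and *Agxt* to *Gnmt* (0.871), *Fbp1* and *Slc6a12*.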

How the data were processed

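RPF and cytoplasmic RNA libraries of 24 mouse livers were grouped by genotype and day from the sample labels. For RPFs, the authors trimmed reads, removed duplicates by molecular identifiers and aligned them to 1 protein-coding transcript per gene of a filtered GENCODE vM27 (GRCm39), and the deposited values were whole-number counts over the coding sequence without its ends. For RNA, the authors aligned reads with Bowtie2 and deposited expected counts and TPM per isoform from RSEM. The submitters' processing notes give Bowtie2 2.3.5.1, RSEM 1.3.3, cutadapt 1.18, SAMtools 1.9 and R 4.3.1. Expected counts were summed per gene and rounded (at least 99.92% of the nonzero values of a library were whole), deposited TPM were used only for levels between genes, and an RPF transcript not listed in a library was taken as 0.

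Tests used edgeR 4.0.16 (quasi-likelihood F test, TMM, filterByExpr with a minimum count of 10 and a minimum total of 15) in R 4.3.3, with only the mice compared in a fit and Benjamini-Hochberg adjustment over all genes tested. Simulated data were used to try the RPF and TE fits of BM against WT at day 4 and the RPF day difference of the BM effect. They had the same dispersion in every gene and group, and so do not cover the wider spread of the day 10 BM mice. TE was the interaction of group and library type, and differences between days and from the sum of the single effects were contrasts over 12 mice. DESeq2 1.42.0, the tool the study's methods name, RLE scaling, no filter, a fit over 24 mice, a threshold of 0.05, a replicate block and leaving out each mouse were alternatives, and leaving out BM mice 2 and 3 of day 10 together was added after the data had been seen. Same-numbered mice of different genotypes did not deviate together (median r -0.01 in RPFs and 0.04 in RNA), whereas RPF and RNA libraries of a mouse did (0.16 to 0.60, median 0.38), as they come from the same liver. Intervals used the t distribution of the fit, and counting error is part of the spread between mice. The 9 enzymes and all gene lists were chosen with earlier results of these data known. Other genes were named if they were the next enzymes of the same pathways, checks of the labels, or the 3 genes with the highest Pearson r to an enzyme (log2 CPM with a prior count of 2). *Pck1*, *Ppargc1a*, *Fkbp5* and *Tsc22d3* were named from their lists after the values had been seen. RefSeq upstream windows were on GRCm38.p6 and gene positions on GRCm39.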

Additional observations from a re-analysis of the deposited data

Results flagged for a closer look

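Effects that differed between the days, by a contrast over 12 mice with edgeR's quasi-likelihood test, were found for the B effect in 5 enzymes. The day 10 minus day 4 difference (log2) was -5.16 in RPFs and -5.32 in RNA for *Hal*, -3.90 and -3.78 for *Sds*, -3.36 and -4.09 for *Sdsl*, -1.70 and -1.72 for *Uroc1*, and -0.98 and -0.95 for *Tdo2*. For the BM effect it was 4.01 in RPFs and 4.37 in RNA for *Tat*, 0.59 and 0.89 for *Hpd*, 0.89 and 0.87 for *Agxt*, 0.66 in RPFs for *Prodh* and -0.56 in RNA for *Uroc1*.

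The RPF effect of both alleles differed from the sum of the single effects in all 9 enzymes at day 4, by -2.83 for *Hal*, -2.44 for *Sds*, -1.70 for *Sdsl*, -1.44 for *Agxt*, -1.16 for *Uroc1*, -0.96 for *Tat*, -0.73 for *Prodh*, -0.71 for *Tdo2* and -0.68 for *Hpd*. At day 10 it differed in the other direction in 4, by 3.60 for *Hal*, 2.50 for *Sdsl*, 2.19 for *Tat* and 1.59 for *Tdo2*. The day 10 values, and the differences of the BM effect between days, include BM mice that did not resemble one another.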

How the results depend on the processing

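Of 145 called values of single enzymes, RLE scaling kept 145, no filter 144, DESeq2 141, the replicate block 136, a threshold of 0.05 123 and a fit over all 24 mice 114, with 0 reversed. Of 1056 values with 1 mouse left out, 872 stayed called and 0 reversed.

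Counts of called enzymes moved by over 1.5 times as follows. With a fit over 24 mice they were 0 (M, day 4), 7 (BM, day 10) and 4 (BM against the sum of single effects, day 4) in RPFs, 1 for B and 1 for M at day 4 and 0 for M at day 10 in RNA, and 0 between WT days in both. DESeq2 gave 1 for M at day 10 and 4 between WT days in RPFs. At a threshold of 0.05, RPF counts were 1 (BM against B, day 10), 2 (BM effect between days), 0 (BM against the sum, day 10) and 1 (WT days), and RNA counts 3 and 0 (M, day 4 and day 10). Without a filter, RNA between WT days gave 4. With the replicate block, RPF counts were 1 (M, day 10), 2 (BM against M, day 10) and 1 (BM against the sum, day 10), and the TE count was 2 (BM, day 10). The block changed no other count by over 1.5 times, and across genotypes the numbers do not pair mice.

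With 1 mouse left out, RPF counts ran from 1 to 4 (B, day 4), 2 to 4 (M, day 4), 0 to 1 (M, day 10), 2 to 9 (BM, day 10), 2 to 7 (BM against M, day 10), 0 to 6 (BM against B, day 10), 2 to 7 (BM effect between days), 0 to 6 (BM against the sum, day 10) and 1 to 2 (WT days). RNA counts ran from 1 to 5 (B, day 4), 3 to 4 (M, day 4), 0 to 1 (M, day 10), 1 to 4 (BM against B, day 10), 4 to 7 (BM effect between days) and 1 to 5 (WT days), and TE counts from 0 to 2 (BM, day 10).

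Without BM mice 2 and 3 of day 10, the lone BM mouse was assumed to vary like the others, so that only effect sizes are given here. Values that changed sign against WT were *Sds* (-5.76), *Tat* (-0.33) and *Tdo2* (-1.0) in RPFs and *Tat* (-0.34) in RNA. Against M they were *Sds* (-5.83) and *Tdo2* (-0.98), and against B *Hal* (-0.91), *Sds* (-1.79), *Sdsl* (-0.093) and *Tat* (-0.62) in RPFs and *Hal* (-0.89), *Sds* (-1.61) and *Tat* (-0.72) in RNA. Between days they were *Hal* (-3.43), *Sds* (-3.76) and *Sdsl* (-2.01) in RPFs and *Hal* (-3.47) and *Sds* (-3.43) in RNA, and against the sum *Hal* (-0.58) and *Tat* (-0.052). The cause was not tested. *Sdsl* RNA, at 0 to 29 counts, is limited by depth.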
